A study of Mus musculus with 12 samples.

Results

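The EGF family and its receptors were followed here as 10 genes, taken from the deposited tables by gene symbol among 32692 gene rows: the ligand genes Egf, Tgfa, Hbegf, Areg, Btc and Nrg1, and the receptor genes Egfr, Erbb2, Erbb3 and Erbb4. Their RNA was measured by RNA-seq in whole kidneys of untreated wild-type (WT) mice at day 8 (n = 5 libraries) and at day 0 (n = 6 libraries). Both ages share genotype and treatment, and strain, sex, litter and batch are not in the labels. Whether the libraries are from separate animals is not stated either, so the p-values speak only for the spread among the libraries, which may be technical. Because whole kidneys were sequenced, fewer cells of a type and less RNA per cell cannot be told apart. Library totals ranged from 18222170 to 24428652 estimated counts. Kidney RNA was evident from Lrp2, the proximal tubule endocytic receptor gene, which reached 5303 ± 183 CPM in day 8 and 3046 ± 289 CPM in day 0 libraries (SD over libraries). CPM is the count scaled to library size, adjusted between libraries by the TMM method.

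Ligands of the EGF family are made as membrane-anchored precursors, and proteases at the cell surface release the part that binds a receptor. EGF, TGF-alpha and amphiregulin bind EGFR, heparin-binding EGF and betacellulin bind EGFR and ERBB4, and neuregulins bind ERBB3 and ERBB4. The receptors act as pairs: ERBB2 has no known ligand of its own and serves as a partner, and ERBB3 has little kinase activity and signals through its partner. In the kidney, the EGF precursor is made mainly by the thick ascending limb and the distal convoluted tubule, and EGF is known to stimulate magnesium uptake through the channel TRPM6.

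Among the ligand genes, Egf and Nrg1 were higher at day 8, by 21.2-fold and 2.08-fold, Tgfa was lower by 2.13-fold, and Hbegf and Btc did not pass the test. All 4 receptor genes were higher at day 8, Egfr by 2.01-fold and the others by 1.40-fold or less, although Erbb2 was not called when libraries were scaled by their totals alone. Of the 10 genes, 9 had enough counts to be tested, 6 were called higher and 1 lower with edgeR's quasi-likelihood test at an adjusted p under 0.05. The same test called 57.6% of all 18763 tested genes, 27.5% higher and 30.1% lower at day 8. Day 8 and day 0 CPM ranges were apart for 6 of the 9 tested members, and for 40.5% of all tested genes. The median log2 fold change, day 8 over day 0, was 0.26 over the 9 members and -0.01 over all tested genes.

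The promoter windows of 4 members are printed because they belong to the ligand with the highest fold change, the ligand that fell, the receptor with the highest fold change and the ligand that was close to 0 at both ages. RefSeq windows on GRCm38.p6 run from 250 bases before to 50 bases after the annotated start, and windows of 7 of the 10 members were used. No window was used for Hbegf, Nrg1 and Erbb3, which does not show that these genes lack one. Each window was searched on both strands for 5 motifs. The box bound by the TATA-binding protein was searched as TATAAA and the Sp1 site, known as GC box, as GGGCGG. The cyclic AMP response element was searched as TGACGTCA, the AP-1 site as TGANTCA and an extended nuclear receptor sequence as AAGGTCA. None of these motifs overlapped another within the 4 windows, and capitals mark each match, in the orientation of the gene. Egf is shown from chr3:129755273-129755572 (minus strand), Tgfa from chr6:86194972-86195271 (plus strand), Egfr from chr11:16751953-16752252 (plus strand) and Areg from chr5:91139349-91139648 (plus strand).
Egf: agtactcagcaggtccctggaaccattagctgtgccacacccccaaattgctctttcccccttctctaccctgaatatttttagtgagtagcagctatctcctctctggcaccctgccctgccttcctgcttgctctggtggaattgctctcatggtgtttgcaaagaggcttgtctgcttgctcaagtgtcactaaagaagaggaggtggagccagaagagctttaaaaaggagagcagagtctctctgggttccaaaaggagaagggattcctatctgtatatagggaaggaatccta
Tgfa: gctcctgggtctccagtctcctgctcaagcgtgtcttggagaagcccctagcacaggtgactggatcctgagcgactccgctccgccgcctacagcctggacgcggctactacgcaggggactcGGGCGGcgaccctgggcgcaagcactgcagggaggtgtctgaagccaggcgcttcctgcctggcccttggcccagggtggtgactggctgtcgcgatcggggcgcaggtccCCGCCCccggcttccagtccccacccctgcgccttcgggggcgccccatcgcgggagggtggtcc
Egfr: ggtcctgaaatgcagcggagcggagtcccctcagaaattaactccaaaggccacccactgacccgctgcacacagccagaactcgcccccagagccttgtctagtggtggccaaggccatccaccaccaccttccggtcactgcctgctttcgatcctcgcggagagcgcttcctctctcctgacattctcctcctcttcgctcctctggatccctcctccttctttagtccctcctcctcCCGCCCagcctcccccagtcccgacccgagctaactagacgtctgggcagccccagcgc
Areg: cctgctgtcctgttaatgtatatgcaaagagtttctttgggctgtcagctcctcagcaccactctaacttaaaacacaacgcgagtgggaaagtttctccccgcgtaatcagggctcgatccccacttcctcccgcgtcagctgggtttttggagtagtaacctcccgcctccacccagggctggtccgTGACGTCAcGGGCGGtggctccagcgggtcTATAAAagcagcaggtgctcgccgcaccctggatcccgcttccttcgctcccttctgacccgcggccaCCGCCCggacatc

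The Egf window held no CpG dinucleotide and no match, and its GC content was 49.0%. Among 32851 RefSeq mouse promoter windows of the same length, 5.43% held no CpG, and the medians were 7 CpG and 52.7% GC. A further annotated start of Egf has another window, chr3:129725037-129725336 (minus strand, not printed), which held 17 CpG, 52.3% GC and also no match, so that the lack of CpG belongs to the printed window. The tables do not show which start was used. The Tgfa window held 24 CpG and 70.7% GC, with a GC box at -126 and at -15 relative to the start. In Egfr the window held 15 CpG and 62.3% GC, with 1 GC box at -9. The Areg window held 21 CpG and 59.3% GC, with the TATA box at -31, the cyclic AMP response element at -61 and GC boxes at -52 and 38. Over all windows, 13.6% held the TATA box, 35.7% the GC box, 1.79% the cyclic AMP response element, 7.81% the AP-1 site and 4.72% the nuclear receptor sequence. These are matches of letters in the windows, and binding was not measured.

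Egf (Entrez gene 13645, chromosome 3, positions 129677565 to 129755316, minus strand, GRCm38) encodes the precursor of epidermal growth factor, and 3 annotated antisense genes overlap it. Its CPM in the 5 day 8 libraries were 147, 152, 209, 152 and 178, against 6.90 (lowest), 7.91 (median) and 8.72 (highest) in the 6 day 0 libraries. Every day 8 library lay far above every day 0 library, and day 8 replicates 3 and 5 were the highest. The log2 fold change was 4.41 with a standard error (SE) of 0.10 (edgeR, adjusted p = 9.37e-13), and the 95% interval of the fold ran from 18.2 to 24.7. Of all tested genes, 99.97% had a lower log2 fold change. With day 8 replicates 3 to 5 left out, it was 4.25.

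**Figure D1:**
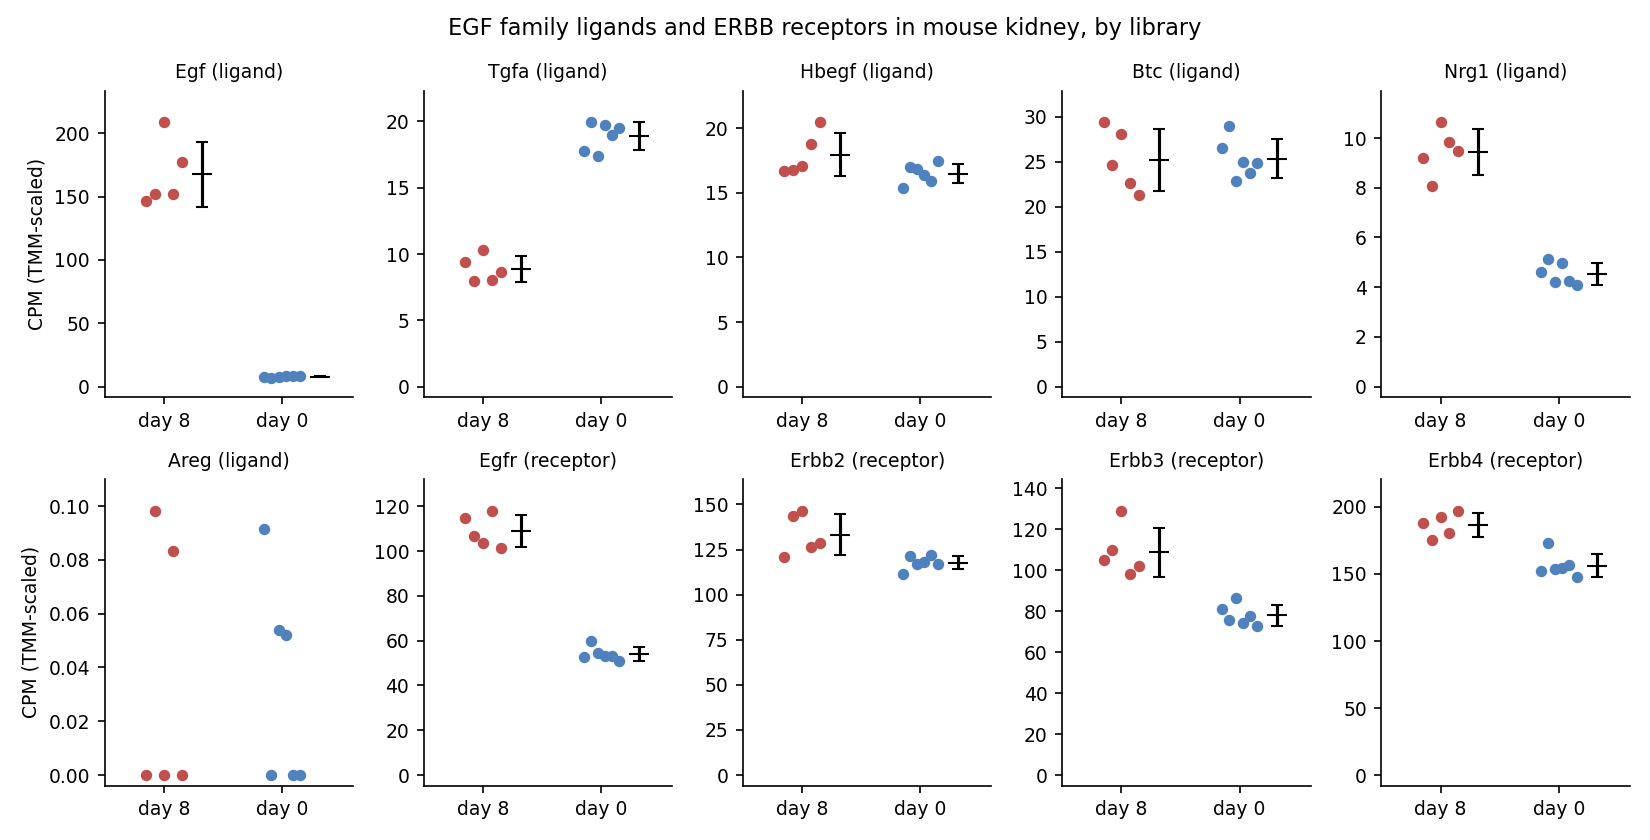
TMM-scaled CPM (linear axis) of the 10 genes in every library, day 8 left and day 0 right in each panel. Points are libraries and bars the mean ± SD, which is not drawn for Areg. The ages are apart for Egf, Nrg1, Tgfa, Egfr, Erbb3 and Erbb4 and overlap for Erbb2, Hbegf and Btc, and Areg stays below 0.1 CPM.

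Tgfa (Entrez gene 21802, chromosome 6, positions 86195223 to 86275719, plus strand) encodes transforming growth factor alpha, a ligand of EGFR. It had 9.40, 7.96, 10.3, 8.04 and 8.65 CPM in the day 8 libraries, against a lowest, median and highest value of 17.4, 19.2 and 19.9 CPM at day 0. All day 8 libraries lay below all day 0 libraries. The level was 2.13-fold lower at day 8 (log2 fold change -1.09, SE 0.08, edgeR adjusted p = 9.80e-09). Of all tested genes, 5.26% had a lower log2 fold change. Egf and Tgfa, both ligands of EGFR, thus moved in opposite directions between the ages.

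Nrg1 (Entrez gene 211323, chromosome 8, positions 31814551 to 32884029, minus strand) encodes neuregulin 1, which binds ERBB3 and ERBB4. Day 8 libraries held 9.19, 8.06, 10.6, 9.83 and 9.49 CPM, against 4.07, 4.44 and 5.15 CPM as lowest, median and highest at day 0. The ages did not overlap, and the fold was 2.08 with a 95% interval of 1.80 to 2.41 (log2 fold change 1.06, SE 0.10, edgeR adjusted p = 2.17e-07). Nerve and Schwann cells are known sources of neuregulins: the summed CPM of 9 of their markers lay between 7.42 and 9.71 at day 8 and between 5.35 and 8.35 at day 0. Of these 9 markers, 4 were tested, Fabp7 rose and 3 did not pass, while the defining genes Cdh19 and Th were below 0.5 CPM in every library. The part of these cells in the Nrg1 result was not tested.

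Hbegf (Entrez gene 15200) encodes heparin-binding EGF. It stood at 16.7, 16.8, 17.1, 18.8 and 20.5 CPM in the day 8 libraries, against 15.4, 16.6 and 17.4 CPM (lowest, median, highest) at day 0. The ages overlapped, although day 8 replicates 4 and 5 lay above every day 0 library. The log2 fold change was 0.12 (95% interval -0.02 to 0.27, edgeR adjusted p = 0.12), an interval that leaves room for a rise of up to 1.20-fold. Btc (Entrez gene 12223, chromosome 5, positions 91357261 to 91402994, minus strand) encodes betacellulin and had 29.4, 24.7, 28.1, 22.6 and 21.3 CPM at day 8, against 22.9, 24.9 and 29.0 CPM at day 0. The day 8 values lay on both sides of the day 0 median. Its log2 fold change was -0.01 with a 95% interval of -0.19 to 0.18 (edgeR adjusted p = 0.96), an interval that covers folds of 0.878 to 1.13.

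Areg (Entrez gene 11839, chromosome 5, positions 91139599 to 91148432, plus strand), which encodes amphiregulin, had 4 counts in all day 8 libraries together and 4 in all day 0 libraries together. It was not tested. The depth-scaled ratio, day 8 over day 0, was 1.03 with an exact 95% interval of 0.191 to 5.50 that covers counting error only. A change in Areg was not detectable at this depth.

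Egfr (Entrez gene 13649, chromosome 11, positions 16752203 to 16918158, plus strand) encodes the receptor shared by EGF, TGF-alpha and amphiregulin. Its CPM were 115, 107, 104, 118 and 101 at day 8, against 51.1, 53.2 and 59.9 (lowest, median, highest) at day 0. The ages were well apart, and libraries of an age differed little, with coefficients of variation of 6.62% at day 8 and 5.65% at day 0. The log2 fold change was 1.01 (SE 0.05, edgeR adjusted p = 1.96e-10). An antisense gene, Egfros, overlaps Egfr, and reached at most 0.264 CPM in a day 8 library and 0.229 CPM in a day 0 library.

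Erbb3 (Entrez gene 13867, chromosome 10, positions 128567523 to 128589652, minus strand), a neuregulin receptor gene, had 105, 110, 129, 98.2 and 102 CPM at day 8, against 72.5, 76.6 and 86.4 CPM at day 0. Its ages did not overlap, and day 8 replicate 3 was the highest. The fold was 1.40 (log2 fold change 0.48, SE 0.07, edgeR adjusted p = 1.51e-05). Erbb4 (Entrez gene 13869, chromosome 1, positions 68032186 to 69108059, minus strand), the other neuregulin receptor gene, had 188, 175, 193, 180 and 197 CPM at day 8, against 148, 154 and 173 CPM at day 0. Its ages lay close to each other without overlapping, with day 8 replicate 2 just above day 0 replicate 2. The fold was 1.19 (log2 fold change 0.26, edgeR adjusted p = 0.000151).

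Erbb2 (Entrez gene 13866, chromosome 11, positions 98412470 to 98437716, plus strand), the partner receptor gene, had 121, 144, 147, 127 and 129 CPM at day 8, against 111, 117 and 122 CPM at day 0. Day 8 replicate 1 fell inside the day 0 range and the other day 8 libraries lay above it. The fold was 1.13 with a 95% interval of 1.05 to 1.22 (log2 fold change 0.18, edgeR adjusted p = 0.006). It was not called when libraries were scaled by their totals alone (log2 fold change 0.12, adjusted p = 0.058). Mien1, a protein-coding gene on the opposite strand, overlaps Erbb2 and ranged over 17.3 to 25.2 CPM in day 8 and 11.6 to 14.3 CPM in day 0 libraries. No source used here says whether the counting was strand-specific.

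**Figure D2:**
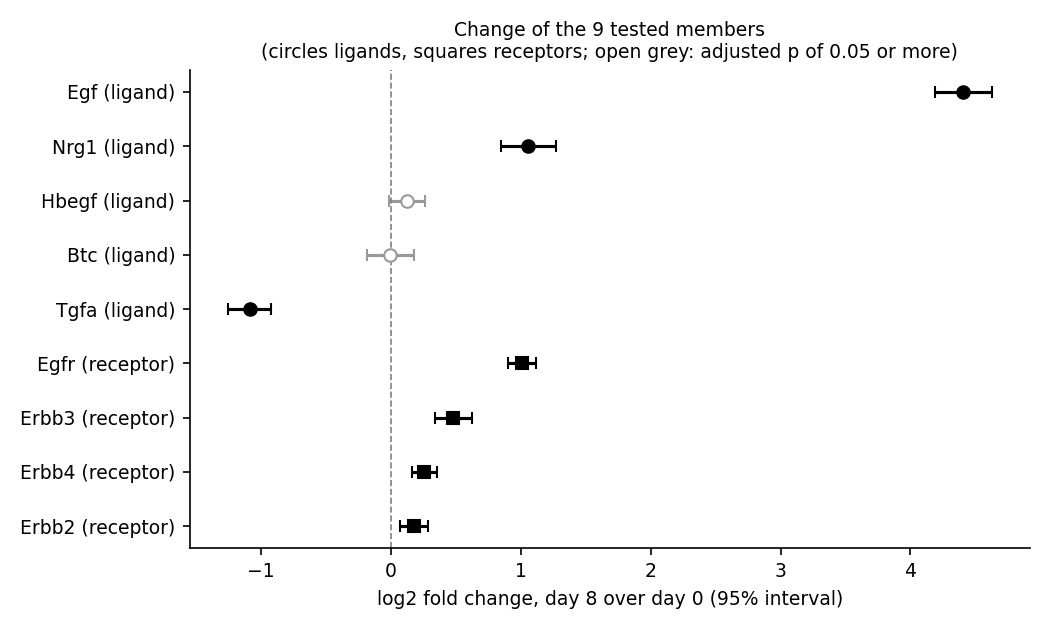
Log2 fold change, day 8 over day 0, of the 9 tested genes with 95% intervals (circles ligands, squares receptors, open grey where the adjusted p was 0.05 or more). Egf stands at 4.41, the receptors lie between 0.18 and 1.01, and Tgfa is at -1.09.

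To set ligands against receptors, deposited TPM values were used, which are per transcript length. Among the 10 genes Egf ranked 1 at day 8, against rank 8 at day 0. The day 8 order was Egf (55.0 ± 10.8 TPM), Erbb2 (38.9 ± 5.26), Erbb4 (25.3 ± 3.94), Erbb3 (23.4 ± 3.73), Egfr (20.3 ± 2.17), Btc (12.4 ± 2.08), Hbegf (10.6 ± 1.44), Nrg1 (3.86 ± 0.716), Tgfa (2.74 ± 0.478) and Areg (0.0444 ± 0.0608). At day 8 the TPM ranges of neighbours overlapped between Egf and Erbb2, Erbb4 and Erbb3, Erbb3 and Egfr, Btc and Hbegf, and Nrg1 and Tgfa. Egf was still above Erbb2 in 5 of 5 libraries, and Nrg1 above Tgfa in 5 of 5.

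At day 0 the order was Erbb2 (30.3 ± 3.47 TPM), Erbb4 (18.6 ± 1.36), Erbb3 (15.2 ± 0.989), Btc (11.2 ± 1.01), Hbegf (9.002 ± 0.985), Egfr (7.88 ± 0.922), Tgfa (5.32 ± 0.639), Egf (2.31 ± 0.389), Nrg1 (1.58 ± 0.227) and Areg (0.037 ± 0.0427). Ranges of neighbours overlapped between Btc and Hbegf, Hbegf and Egfr, and Egf and Nrg1. Erbb2, Erbb4 and Erbb3 kept their order relative to each other at both ages, but Erbb4 was above Erbb3 in only 3 of 5 day 8 libraries.

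The summed TPM of the 6 ligands was 84.7 ± 13.7 at day 8 (range 68.5 to 104) and 29.4 ± 2.59 at day 0 (26.6 to 32.3), which is 2.88-fold between the means. The 4 receptors summed to 108 ± 12.2 TPM at day 8 (95.1 to 128) and 72.0 ± 5.62 TPM at day 0 (64.7 to 78.3), which is 1.499-fold between the means. Folds of TPM ran above those of the edgeR fit. Over the genes tested on each scale, the median log2 fold change was 0.13 with log2(TPM + 1) and -0.01 in the edgeR fit. Ligands over receptors came to 0.781 ± 0.0536 at day 8 and 0.409 ± 0.0145 at day 0, and the ranges, 0.720 to 0.855 and 0.389 to 0.425, did not overlap. Without Egf the order turned round: 0.275 ± 0.0157 at day 8 and 0.377 ± 0.0157 at day 0. The higher ligand share of day 8 kidneys rested on Egf. No test was run on these sums.

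**Figure D3:**
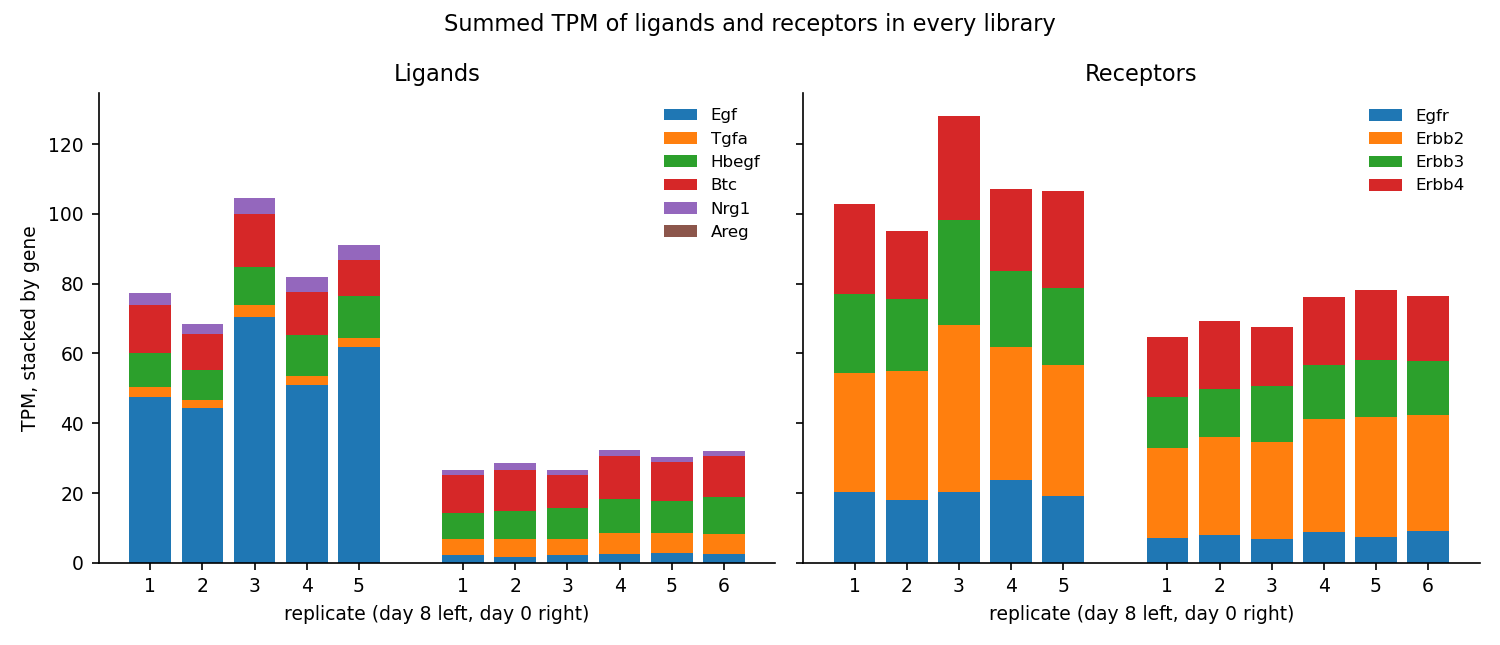
Deposited TPM of the 6 ligands (left) and the 4 receptors (right), stacked by gene, one bar per library, with day 8 libraries left of day 0 libraries in each panel. Egf fills 61.5% to 67.8% of the ligand bar at day 8 and 5.73% to 8.88% at day 0.

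Within the ligands, Egf made up 64.7 ± 2.89% of the summed TPM at day 8 and 7.85 ± 1.11% at day 0. Btc took 14.8% at day 8 and 38.1% at day 0, Hbegf 12.6% and 30.6%, and Tgfa 3.24% and 18.0%. Ligand RNA was thus mostly Btc and Hbegf at day 0 and mostly Egf at day 8. Within the receptors, Egfr took 18.9 ± 2.32% at day 8 and 10.9 ± 0.919% at day 0, while Erbb2 took 36.0 ± 2.18% and 42.0 ± 1.61%. Erbb3 (21.6% and 21.1%) and Erbb4 (23.4% and 25.9%) had closer shares at day 8 and day 0. The TPM ratio of Egf to Egfr was 2.73 ± 0.577 at day 8 and 0.295 ± 0.0525 at day 0.

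Because Egf is made in the thick ascending limb and distal convoluted tubule, it was set beside markers of those segments. Of 10 thick ascending limb markers, 9 rose and 1 did not pass, and their summed CPM lay between 2879 and 3634 at day 8 and between 1415 and 1613 at day 0. Of 8 distal convoluted tubule markers, 7 rose and 1 did not pass, with sums of 3103 to 3481 CPM at day 8 and 1740 to 2035 CPM at day 0. Such rises were not particular to these segments: 7 of 8 proximal tubule and 6 of 6 endothelial markers rose too. In contrast, 3 of 8 collecting duct markers rose and 2 fell, and 5 of 6 nephron progenitor markers fell. Over all tested genes, 27.5% were called higher. Within day 8, replicate 1 had the lowest and replicate 3 the highest thick ascending limb sum, as for Egf. The distal convoluted tubule sum did not follow Egf in this way: it was highest in replicate 1 and lowest in replicate 2. That sum was led by Wnk1 and Slc8a1, which averaged 1180 and 670 CPM at day 8. Slc12a3 of the same list had 665, 573, 679, 630 and 702 CPM in day 8 replicates 1 to 5. It was highest in replicates 5 and 3, also the highest for Egf, and lowest in replicate 2. The part of the cells of these 2 segments in the Egf result was not tested. The thick ascending limb ratios that follow do not test it, because both genes set under Egf were themselves higher at day 8.

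Per length, Egf relative to Slc12a1, the sodium-potassium-chloride cotransporter gene of the thick ascending limb, was 0.126 ± 0.00611 at day 8 and 0.0112 ± 0.00176 at day 0, an 11.3-fold ratio of means. Relative to Umod, the uromodulin gene of the same segment, Egf was 0.0958 ± 0.00931 at day 8 and 0.0194 ± 0.00291 at day 0, a 4.94-fold ratio of means. Both ratios were apart between the ages, so that Egf RNA differed by more than the RNA of either of these thick ascending limb genes. No ratio to a distal convoluted tubule gene was taken. Among markers of that segment, Klk1 rose 8.86-fold and Slc12a3 3.15-fold, and Calb1 did not pass.

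**Figure D4:**
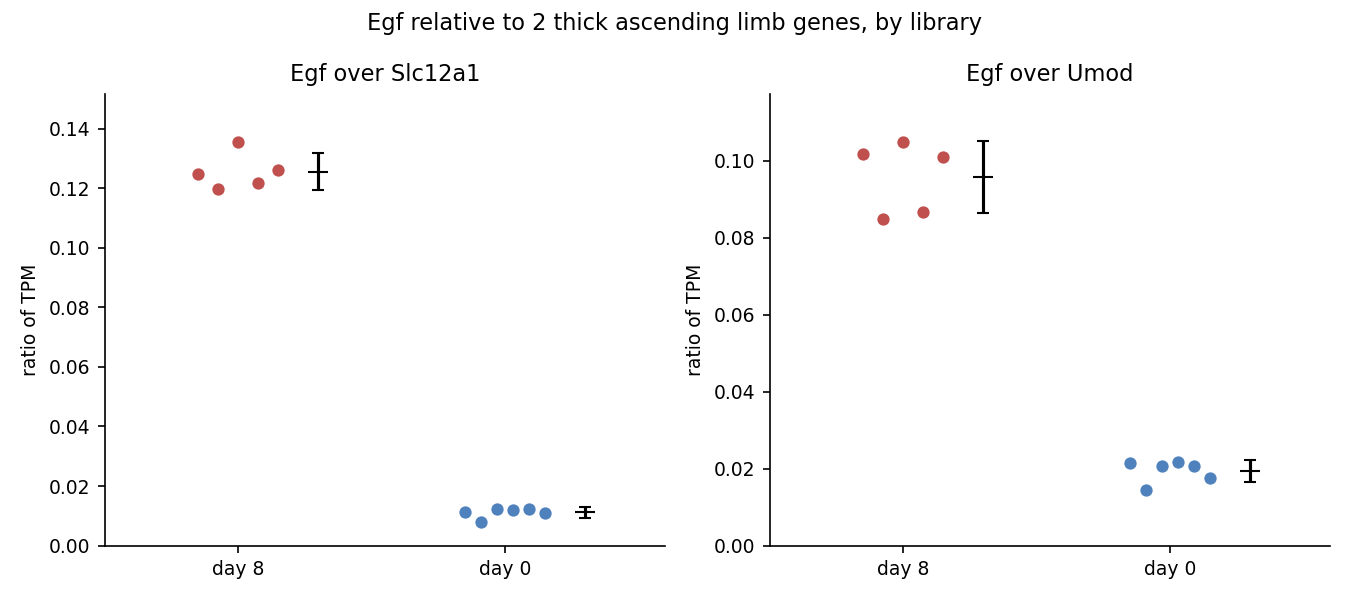
TPM of Egf divided by TPM of Slc12a1 (left) or Umod (right) in every library, day 8 left and day 0 right, with the mean ± SD. All 5 day 8 ratios to Slc12a1 lie between 0.120 and 0.135 and all 6 day 0 ratios between 0.00778 and 0.0125.

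The other 5 ligand genes of the family were rare, with a summed level of 1.52 to 3.15 CPM at day 8 and 1.69 to 2.86 CPM at day 0. Nrg3, a neuregulin gene known mainly from the nervous system, had 2, 2, 0, 1 and 0 counts in the day 8 libraries, against 12 to 25 counts in each day 0 library, a depth-scaled ratio of 0.0534 (exact 95% interval 0.0170 to 0.129). It passed the filter on low counts only through the day 0 libraries, where it was higher, so that its fitted change is not given as a result. It had too little RNA for the CPM filter and for a mean of 1 TPM. Nrg2, another neuregulin gene, had 158 counts over the day 8 libraries and 154 over the day 0 libraries and was not called (log2 fold change 0.12, adjusted p = 0.65). Ereg (epiregulin) had 19 day 8 counts and 2 day 0 counts, a depth-scaled ratio of 9.74 (exact 95% interval 2.35 to 86.2), and Epgn (epigen) 5 day 8 counts and 13 day 0 counts, a ratio of 0.394 (0.110 to 1.18). Neither was tested.

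Nrg4, a neuregulin gene known from brown fat, had 74 day 8 counts and 23 day 0 counts in all, and was not tested. The depth-scaled ratio for Nrg4 was 3.30, with an exact 95% interval of 2.04 to 5.52 that covers counting error only, not the spread among libraries. The day 8 CPM of Nrg4 were 0.172, 0.0983, 1.14, 0.750 and 1.10, so that replicates 3 to 5 stood apart from replicates 1 and 2, which lay inside the day 0 range of 0.0521 to 0.274 CPM. Ucp1, the brown fat uncoupling gene, was likewise at 33.2, 25.7 and 12.3 CPM in replicates 3 to 5 and at 3.44 and 3.05 CPM in replicates 1 and 2. At day 0, Ucp1 was at most 0.0548 CPM. Of 7 fat markers, 5 were tested, 4 rose and 1 did not pass, beside 27.5% of all tested genes called higher. The 1 that did not pass was Fabp4, at 56.5 ± 4.60 CPM in day 8 and 58.1 ± 5.91 CPM in day 0 libraries. The part of fat tissue in the Nrg4 result was not tested.

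Genes around the receptors were read from lists of the pathway. The counts of these lists, here and below, stand beside 27.5% of all tested genes called higher and 30.1% called lower. Of 11 genes for proteases and related factors that process ligands, 6 rose, 1 fell and 4 did not pass, with a median log2 fold change of 0.19. Adam12, a metalloprotease gene, rose 3.40-fold to 162 ± 8.91 CPM at day 8, against 47.8 ± 3.42 CPM at day 0 (edgeR adjusted p = 5.51e-13). Mep1a, a meprin subunit gene of the proximal tubule brush border, rose 2.10-fold to 771 ± 45.3 CPM, against 367 ± 25.6 CPM. Adam10, whose protease releases EGF and betacellulin, averaged 210 ± 7.80 CPM in day 8 and 222 ± 4.73 CPM in day 0 libraries, a log2 fold change of -0.08 that passed only just (adjusted p = 0.0497) and did not with RLE scaling or TPM. Adam17, the main protease for TGF-alpha and amphiregulin, was singled out after its values were seen, and averaged 80.8 ± 3.80 CPM in day 8 and 70.6 ± 1.37 CPM in day 0 libraries (log2 fold change 0.19, adjusted p = 0.000434).

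A list of 16 genes held inhibitors of the receptors and, as Spry and Spred genes, inhibitors of signalling downstream of receptors. Of the 16, 3 rose, 8 fell and 5 did not pass, with a median log2 fold change of -0.16. Spry1, Spry2, Spred1 and Spred2 were among those that fell. On the TPM scale, 2 of the 16 genes in the list were called lower, against 8 in the edgeR fit. Errfi1, whose protein MIG6 binds and blocks the EGFR kinase, rose 2.10-fold to 129 ± 14.3 CPM at day 8, against 61.4 ± 3.68 CPM at day 0 (edgeR adjusted p = 2.06e-09). Lrig3, of a family of membrane proteins that regulate ERBB receptors, was 2.20-fold lower at 24.3 ± 0.550 CPM, against 53.6 ± 2.41 CPM (adjusted p = 1.92e-11). Cbl, the ubiquitin ligase gene that sends EGFR to degradation, averaged 161 CPM in day 8 and 196 CPM in day 0 libraries, and Ptprj, a receptor phosphatase gene, 207 CPM in day 8 and 169 CPM in day 0 libraries.

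Adaptor and kinase genes of the RAS-MAPK and PI3-kinase branches showed small differences: of 24, 6 rose, 7 fell and 11 did not pass, with a median log2 fold change of -0.02. These counts were near the shares over all tested genes, 27.5% higher and 30.1% lower. None of the 24 genes fell on the TPM scale. The 2 with the largest differences were Pik3cb, a PI3-kinase catalytic subunit gene (30.0 CPM at day 8 and 19.8 CPM at day 0, log2 fold change 0.60), and Stat3 (113 and 84.5 CPM, log2 fold change 0.42). Pik3r1, a PI3-kinase regulatory subunit gene, had the highest level, at 259 CPM in day 8 and 251 CPM in day 0 libraries, and was not called (log2 fold change 0.04).

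Of 19 genes that respond to ERK signalling, 18 were tested, 3 rose, 10 fell and 5 did not pass, with a median log2 fold change of -0.29. Etv4, a transcription factor gene, was 13.9-fold lower at 2.34 ± 0.556 CPM at day 8, against 32.6 ± 2.23 CPM at day 0 (edgeR adjusted p = 6.78e-13). Dusp5, an ERK phosphatase gene, was 2.38-fold lower at 3.11 ± 0.501 CPM, against 7.41 ± 0.864 CPM. Ccnd1, the cyclin D1 gene, averaged 318 ± 41.3 CPM in day 8 and 395 ± 17.0 CPM in day 0 libraries, and Dusp6, another ERK phosphatase gene, 73.6 ± 6.79 and 88.1 ± 4.75 CPM. These genes also respond to other receptors: Etv4 and Etv5 are in the list of ureteric tip markers, whose 6 genes all fell, to summed levels of 58.1 to 71.7 CPM at day 8, against 311 to 349 CPM at day 0. The part of ureteric tip cells in the response list was not tested.

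Of 9 genes of renal magnesium handling, 7 rose and 2 did not pass, with a median log2 fold change of 0.66. Trpm6, the magnesium channel gene of the distal convoluted tubule, rose 1.76-fold to 16.8 ± 2.26 CPM at day 8, against 9.53 ± 1.83 CPM at day 0 (edgeR adjusted p = 5.75e-05). Fxyd2, the Na,K-ATPase gamma subunit gene, rose 1.97-fold to 773 ± 60.0 CPM, against 392 ± 41.8 CPM. Trpm7, the related widely expressed channel gene, averaged 235 ± 14.6 CPM in day 8 libraries and 212 ± 4.47 CPM in day 0 libraries (log2 fold change 0.15). Cldn16 and Cldn19 of this list also stand among the thick ascending limb markers, and Trpm6 and Trpm7 among those of the distal convoluted tubule.

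**Figure D5:**
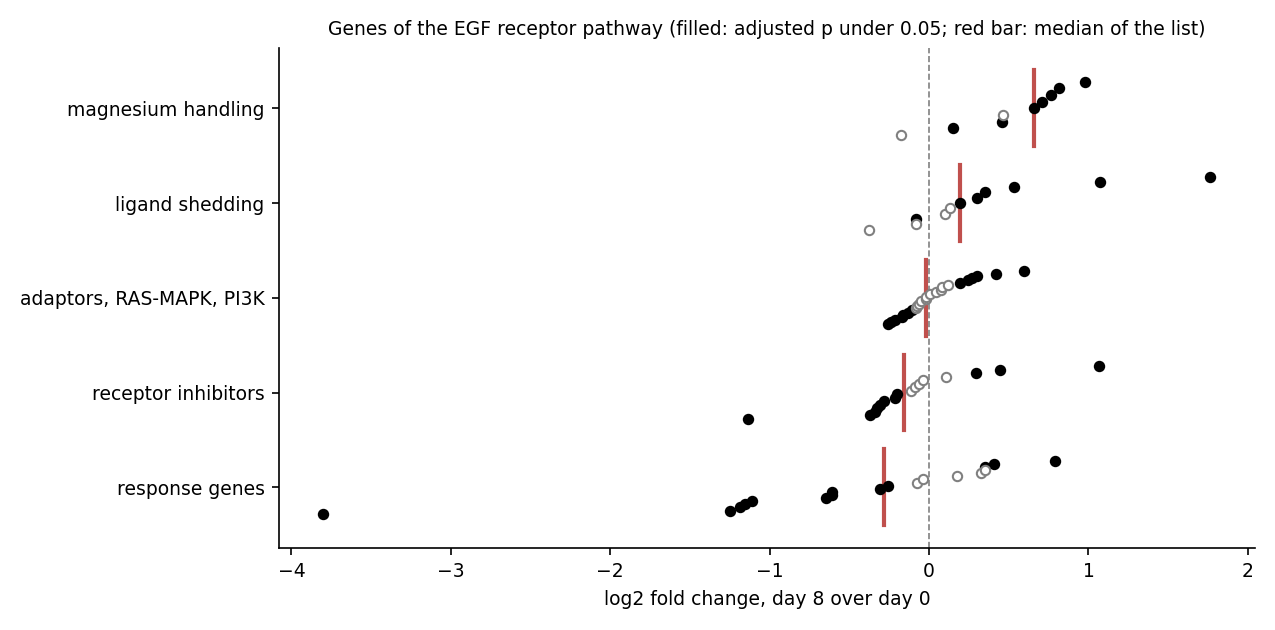
Log2 fold change, day 8 over day 0, of each tested gene in 5 pathway lists (filled points: edgeR adjusted p under 0.05; red bars: list medians). Medians run from 0.66 for magnesium handling to -0.29 for response genes, and Etv4 is the point near -3.80.

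Likeness to Egf was measured by Pearson's r of log2 CPM over the 11 libraries, among 11059 genes with a mean of at least 10 CPM. Among the highest values were those of Gabarapl1 (r = 0.997), an autophagy gene, Slc16a13 (0.996), a monocarboxylate transporter family gene, Arhgap24 (0.996) and Stard8 (0.996). The libraries share the age difference, and 1031 of 11058 genes were above 0.95. Taken as deviations from each age's mean, r was 0.824 for Gabarapl1 and 0.437 to 0.563 for the other 3. For Tgfa the nearest genes were Eef2k (r = 0.993), Gfra1 (0.991), the GDNF co-receptor gene, Igf2bp3 (0.990), Il17rd (0.989) and Pbx2 (0.989), and 562 genes were above 0.95. Gfra1 is also one of the ureteric tip markers and averaged 10.5 CPM in day 8 and 91.4 CPM in day 0 libraries.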

How the data were processed

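Kidney RNA of 11 libraries was analysed: 5 at day 8 and 6 at day 0. The labels list 12 samples, of which 1 at day 8 was not analysed here, and tests planned for 6 against 6 libraries ran on 5 against 6. Per the labels' protocols, libraries came from total RNA with a stranded, ribosomal RNA-depleting kit. The authors deposited estimated counts per gene (12.1% to 13.1% of values were not whole) and TPM values scaled for length, which sum to 995005 to 998182 per library. Per the submitters' processing notes, FastQC, fastp, DRAGEN, Picard and the build mm10 were used. The counting step, its annotation and strand setting are not given in the sources used here. Coordinates are from GENCODE vM21 on GRCm38, the assembly mm10 denotes.

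Counts were rounded and fitted with edgeR 4.0.16 in R 4.3.3 (TMM, filterByExpr, robust quasi-likelihood, age as the only term), with Benjamini-Hochberg adjustment over all 18763 tested genes and a threshold of 0.05. The fit was tested on simulated data. An SE is the absolute log2 fold change over the square root of the F statistic. Other errors are SD over libraries. Sums and orders used deposited TPM. Alternatives were DESeq2 1.42.0, limma-voom (limma 3.58.1), other scalings and filters, limma on log2(TPM + 1) and log2(TPM + 0.1), leaving out libraries, a threshold of 0.01 and log2 CPM of Xist as covariate. Summaries used Python 3.11.15 with pandas 2.3.3 and scipy 1.17.1. Members and lists were chosen with earlier results of these data known. Named are the members, the other 5 ligands, from each pathway list the 2 genes that changed most and the 2 most abundant, the leading or near-absent markers, and the 5 genes most like Egf and Tgfa. Some genes that this rule names are not reported here.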

Additional observations from a re-analysis of the deposited data

Results flagged for a closer look

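Of 76 groups of libraries examined, one age of one gene each, 4 held a library far from the others of its age. Chance flags about 1 in 20 groups. Erbb4 was highest at 173 CPM in day 0 replicate 2, against 148 to 156 CPM in the other day 0 libraries. Gabarapl1 was lowest in the same library, at 81.9 CPM, against 88.0 to 91.1 CPM. Adam10 was highest at 223 CPM in day 8 replicate 2, against 205 to 209 CPM in the other day 8 libraries. In day 8 replicate 1, Mep1a was lowest at 693 CPM, against 774 to 804 CPM.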

How the results depend on the processing

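The 9 tested members were recomputed under 24 alternatives each. Of these 216 results, 200 kept their direction and their side of the threshold. Erbb2 was not called with library size only (log2 fold change 0.12, adjusted p = 0.058). The other 15 were Btc, never called, whose log2 fold change of -0.0062 turned positive: 0.0051 with DESeq2 and with RLE, 0.0009 with the CPM filter, 0.1279 with log2(TPM + 1) with and without a filter, 0.1370 with log2(TPM + 0.1), 0.0073 with Xist, 0.0999 without day 8 replicates 3 to 5, 0.0497 without day 0 replicates 1 to 3, and in 6 of the fits without 1 library, which ran from -0.0581 to 0.0599. Nrg2, also not called, was at -0.0358 without day 8 replicates 3 to 5. Log2 fold changes ranged from 4.07 to 4.51 for Egf, 0.95 to 1.35 for Egfr, 0.90 to 1.23 for Nrg1 and -1.15 to -0.76 for Tgfa. The median over all tested genes was -0.01 with TMM, -0.07 with library size only and 0.13 with log2(TPM + 1). Genes called lower numbered 5646 in the edgeR fit, and 2477, 2474 and 2830 with limma on log2(TPM + 1), on log2(TPM + 0.1) and without a TPM filter. Of all calls, 47.8% were higher in the edgeR fit, 39.5% without TMM and 68.7% on the TPM scale. Pathway genes called lower numbered 26, and 9 with each of the filtered TPM fits. The cause was not tested. Ligands over receptors at day 8 and day 0 were 0.425 and 0.180 with summed CPM, and 0.275 and 0.377 without Egf. With all 11 ligands the day 0 ratio was 0.4295. With each library left out in turn, 6 members were called higher and 1 lower every time. No paired analysis was possible because the labels give no replicate numbers shared between the ages. Depth limits Areg, Ereg, Epgn and Nrg4, which had too few counts to test.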

Other observations

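Urothelium, the lining of the renal pelvis, is another epithelium known to respond to EGF family ligands. All 6 of its markers tested were lower at day 8, with summed levels of 17.1 to 25.7 CPM at day 8 and 48.2 to 69.3 CPM at day 0. Upk1b, a uroplakin gene, averaged 5.46 ± 1.81 CPM in day 8 and 17.2 ± 3.28 CPM in day 0 libraries (log2 fold change -1.65, edgeR adjusted p = 1.35e-05), and Upk3a 4.66 ± 0.511 CPM in day 8 and 11.8 ± 1.54 CPM in day 0 libraries (log2 fold change -1.33, adjusted p = 4.46e-08).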
